A study of Mus musculus with 15 samples.

Results

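The Hmga1 add-back was compared with the Hmga1 KO line from which it was made, in embryonic stem cells (ESC) of the mouse, pluripotent cells taken from the early embryo. The comparison used 2 add-back samples and 2 KO samples of the 15 RNA-seq samples of the series, each named a or b. Samples with the same letter were paired, because they shared the day of library preparation and the flow cell. All genes whose counts averaged 10 or more over the 9 samples of the same count table were described, 13912 of 21662 genes. The comparison asks which transcripts differ when Hmga1 is put back into cells that lack it.

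All lines descend from an ESC line of mixed 129Sv and C57Bl/6 background that expresses the biotin ligase BirA, kept in serum with LIF. The WT line carries intact Hmga1 (3 samples, a, b and c). The Hmga1 KO is a single clone in which Cas9 cutting at the border of an intron and an exon shifted the reading frame, and it still makes a transcript from the Hmga1 locus. The Hmga1 add-back is KO cells with a biotin-tagged Hmga1 cDNA under the constitutive CAG promoter, inserted by Cre recombinase at a defined site. The Hmga2 add-back (2 samples) carries Hmga2 cDNA in the same way. Each genotype was thus 1 line, and the samples of a line were cultures harvested on different days, so that a difference between lines cannot be told apart from an effect of Hmga1.

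Hmga1 is a small chromatin protein that binds the minor groove of AT-rich DNA through AT-hooks, and it is abundant in ESC. The genes with the lowest p values in this comparison include members of the hypoxia response. Hypoxia-inducible factors (HIF), made of an oxygen-regulated alpha subunit (Hif1a or Epas1) and a constant partner, bind promoters of genes for glucose uptake, glycolysis, lactate export and mitophagy. Prolyl hydroxylases such as Egln1 mark the alpha subunit for degradation when oxygen is present, and pluripotent cells in serum rely strongly on glycolysis.

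Counts on genes summed to between 13465399 and 34952136 in the 4 samples, and batch a was the deeper in both lines. Levels are CPM, counts divided by the TMM-normalized library size of the sample, and differences are add-back minus KO on the log2 scale from edgeR's quasi-likelihood test with the batch as a term. The 10 stem cell markers had between 62.8 and 1244 CPM each in the 4 samples. Pou5f1, a core pluripotency factor, had 907 and 878 CPM in KO a and b and 711 and 952 in add-back a and b. Of 11 markers of feeder fibroblasts, 8 were below the count minimum and 4 had no count in any of the 4 samples. Their summed level was 9.49 and 10.5 CPM in KO and 17.9 and 9.07 in the add-back. In bulk samples, fewer cells of a type and less RNA per cell cannot be told apart.

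No gene passed edgeR's test at an adjusted p under 0.01 with a difference of 2-fold or more (0 of 13912), and none did at an adjusted p under 0.05. The smallest adjusted p was 0.824. At an unadjusted p under 0.05, 390 genes (2.80%) were counted, fewer than the 696 that 5% of the genes make up. Of these, 176 (1.27%) were higher and 214 (1.54%) lower in the add-back. The count rested on single samples, with 76 genes without KO a and 676 without KO b. Limma-trend called 0 genes and had 341 at an unadjusted p under 0.05. DESeq2 called 2 genes (0.0144%), Tmem64 and Bnip3, and had 268 at that p. A fit of the 4 samples alone called 4 genes (0.0287%), Col4a1, Col4a2, Cubn and Tmem64, and had 642. Since no gene was called by the main test, the values below describe these samples, and unadjusted p values are given only to order and count genes.

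The difference between add-back and KO was mostly not shared by the batches. Across the 13912 genes the log2 difference of batch a against that of batch b had a Pearson r of 0.00171 and a Spearman rho of -0.0664, a description over genes, which are not replicates. Both batches had the same sign in 46.0% of genes. The genes higher in the add-back in both batches were 3354 (24.1%) and those lower in both were 3049 (21.9%). Both add-back samples lay above both KO samples for 1113 genes (8.00%) and below them for 951 (6.84%).

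**Figure D1:**
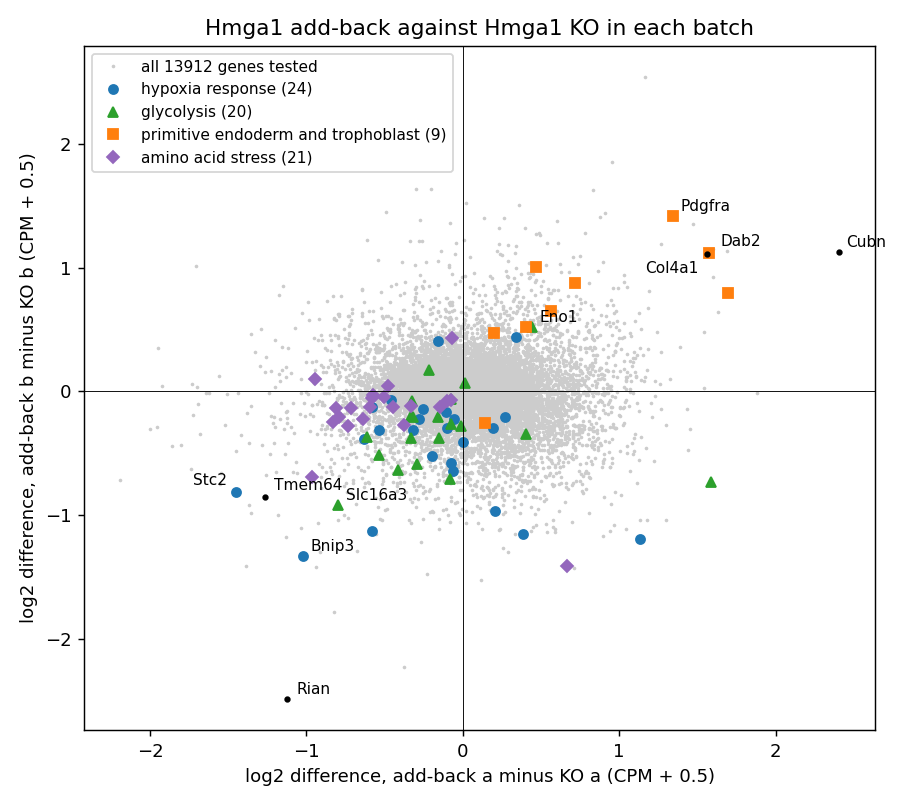
Log2 difference between Hmga1 add-back and Hmga1 KO (normalized CPM plus 0.5) in batch a (x axis) and batch b (y axis) for the 13912 genes tested, with 4 gene lists coloured and single genes named. The cloud has no slope (r of 0.00171), while most hypoxia and glycolysis genes lie at the lower left and 8 of 9 primitive endoderm and trophoblast genes at the upper right.

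Hmga1 itself lies on chromosome 17 from 27693565 to 27700619 on the plus strand (NCBIM37, the mm9 assembly). It had 217 and 96.1 CPM in KO a and b, 184 and 123 in add-back a and b, and 464, 276 and 221 in WT a, b and c. The add-back was thus below KO in batch a and above it in batch b, and the 2 groups overlapped. Its log2 difference was 0.04 (SE 0.17), against 1.29 for WT minus KO. Counts of the gene hold the transcript of the mutated locus and any read of the inserted cDNA together, so that this count does not check the label of the add-back. The study's protein blots, not analysed here, do so. Hmga2, the paralog that ESC hardly express, had 18.9 and 13.8 CPM in KO and 18.5 and 17.8 in the add-back. In the Hmga2 add-back, which carries its cDNA, it had 249.1 and 222 CPM.

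Most genes of the hypoxia response had lower values in the add-back. Of 26 listed genes 24 were tested, and 0 were called. At an unadjusted p under 0.05, 9 were lower and 0 higher, against 1.54% and 1.27% of all genes. Without KO a, KO b or add-back b in turn, 5 were lower at that p, and without the batch term 2 were. Lower values in both batches were found for 16 of the 24 (21.9% of all genes), and 6 had both add-back samples below both KO samples (6.84% of all genes). The median difference was -0.27, against 0.01 over all genes tested, and it was -0.13 and -0.31 in batches a and b. The summed level of the list was 1194 and 1508 CPM in KO a and b, 1030 and 1209 in the add-back, and between 1030 and 1193 in WT. In the Hmga2 add-back it was 1062 and 1267 CPM, also below KO in both batches. The list and the names Bnip3 and Slc16a3 were chosen with earlier results of these data known.

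Bnip3, a mitophagy receptor of the outer mitochondrial membrane, lies on chromosome 7 from 146082519 to 146101202 on the minus strand (NCBIM37). It had 20.5 and 37.9 CPM in KO a and b, 9.85 and 14.8 in the add-back, and 4.74, 12.9 and 5.02 in WT a, b and c. Both add-back samples were below both KO samples, at 48.0% and 38.9% of KO of batches a and b. The log2 difference was -1.19 (SE 0.21, adjusted p 0.9999 in edgeR). DESeq2 gave an adjusted p of 0.00424, and over all alternatives the adjusted p ran from 0.00424 to 1. In the Hmga2 add-back, which shares its KO samples with this comparison, Bnip3 had 10.6 and 20.7 CPM.

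Stc2, a secreted glycoprotein hormone, had 18.4 and 28.0 CPM in KO, 6.43 and 15.7 in the add-back and 11.5, 14.97 and 12.2 in WT. The add-back samples were at 35.0% and 56.1% of KO of the same batch, and the log2 difference was -1.18 (SE 0.26). Ndrg1, a stress-responsive gene of differentiation, had 6.17 and 9.43 CPM in KO against 3.96 and 4.05 in the add-back, a log2 difference of -0.92 (SE 0.29). Ak4, a mitochondrial adenylate kinase, had 79.8 and 78.4 CPM in KO against 51.3 and 59.9 in the add-back, a difference of -0.52 (SE 0.14). Both genes had add-back values within the range of WT, which were 5.31, 3.88 and 5.06 for Ndrg1 and 51.8, 63.5 and 47.9 for Ak4.

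Higd1a, a factor of the respiratory chain, had 27.3 and 29.5 CPM in KO and 18.6 and 23.6 in the add-back. Egln1, the main oxygen-sensing prolyl hydroxylase, had 31.9 and 28.6 CPM in KO and 27.8 and 19.8 in the add-back. For these 2 genes the groups did not overlap. Pdk1, the kinase that shuts pyruvate dehydrogenase, had 272 and 375 CPM in KO and 218 and 302 in the add-back, where the difference between batches was larger than that between lines. The mitophagy receptor Bnip3l and the mitochondrial protein Fam162a were also lower in both batches, with log2 differences of -0.25 (SE 0.11) and -0.37 (SE 0.16).

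The regulators of the pathway had no common direction. Of 6 (Hif1a, Epas1, Arnt, Vhl, Hif1an and Egln2), 0 were at an unadjusted p under 0.05, 2 were higher and 1 lower in both batches, and their median difference was 0.07. Hif1a, the oxygen-regulated subunit, had 250 and 251 CPM in KO, 249 and 275 in the add-back, and 292, 310 and 334 in WT. On the log2 scale its transcript differed by 0.06 (SE 0.10). HIF proteins were not measured in these data.

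Most glycolysis genes had lower values as well. All 20 listed genes were tested and 0 were called. At an unadjusted p under 0.05, 8 were lower and 1 higher, against 1.54% and 1.27% of all genes. Without the batch term 3 were lower. Without KO a, KO b or add-back b, 4, 5 and 3 were lower. In both batches 15 of 20 were lower and 2 higher, against 21.9% and 24.1% of all genes. Both add-back samples lay below both KO samples for 10 of 20 (6.84% of all genes). The median difference was -0.24, with -0.19 in batch a and -0.31 in batch b. Pkm and Slc2a3, the members of highest level, had log2 differences of -0.07 and -0.14.

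Slc16a3, the lactate exporter MCT4, lies on chromosome 11 from 120809794 to 120822182 on the plus strand (NCBIM37). It had 38.8 and 47.3 CPM in KO a and b, 22.1 and 24.7 in the add-back, and 14.6, 24.8 and 10.6 in WT. The add-back samples were at 57.1% and 52.3% of KO in batches a and b, without overlap. It differed by -0.86 on the log2 scale (SE 0.16), and the adjusted p was 0.9999 in edgeR and 0.0286 in DESeq2, with a range over all alternatives from 0.0286 to 1. In the Hmga2 add-back the gene had 24.3 and 31.9 CPM.

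Of the enzymes, Tpi1 (triose phosphate isomerase) had 160 and 167 CPM in KO, 110 and 116 in the add-back, and 93.5, 111 and 91.6 in WT. Its log2 difference was -0.53 (SE 0.10) and nearly equal in both batches, at -0.54 and -0.51. Pgk1 (phosphoglycerate kinase) had 463 and 468 CPM in KO, 303 and 363 in the add-back and between 268 and 329 in WT. Both add-back samples were below both KO samples for these genes and for Aldoa (aldolase), which had 993 and 1005 CPM in KO and 788 and 776 in the add-back.

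Pfkp, a phosphofructokinase subunit, had 340 and 473 CPM in KO, 255 and 305 in the add-back, and 126, 240 and 129 in WT. The glucose transporter Slc2a1 had 498 and 427 CPM in KO and 406 and 285 in the add-back. Both were lower in both batches without overlap of the groups, with log2 differences of -0.52 (SE 0.16) and -0.43 (SE 0.15). Ldha (lactate dehydrogenase) and Pgam1 (phosphoglycerate mutase) were lower within each batch, at -0.27 (SE 0.11) and -0.26 (SE 0.11). For both, batch b was higher than batch a in each line, and the groups overlapped.

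Enolase had higher values. Eno1 had 476 and 320 CPM in KO, 648 and 458 in the add-back, and 415, 288 and 406 in WT. Add-back b was below KO a, so that the groups overlapped. Eno1 differed by 0.48 on the log2 scale (SE 0.10), with 0.44 in batch a and 0.52 in batch b. Its near-identical copy Eno1b, with which it shares reads placed at random, had a difference of 0.52 (SE 0.10), so that the 2 entries cannot be read apart. In both WT and the Hmga2 add-back (406 and 290 CPM) Eno1 lay below the add-back of Hmga1 within batches a and b.

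**Figure D2:**
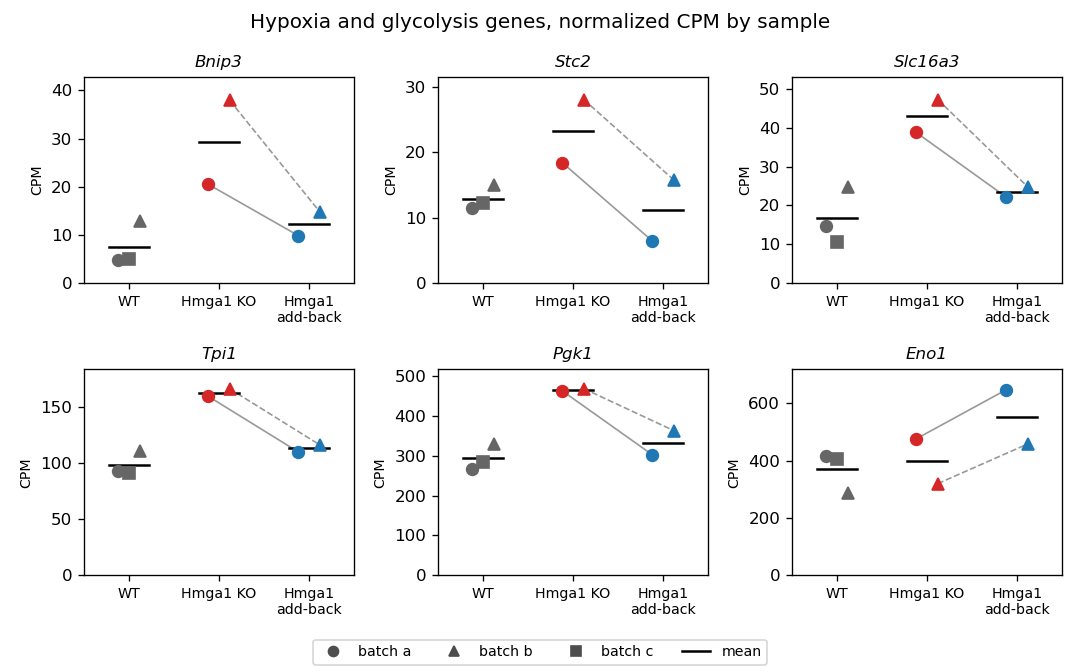
Normalized CPM (y axis, from 0) of 6 hypoxia and glycolysis genes in each sample of WT, Hmga1 KO and Hmga1 add-back, with a symbol per batch, a black bar for the mean, and grey lines joining KO and add-back of one batch. Bnip3, Stc2, Slc16a3, Tpi1 and Pgk1 had both add-back samples below both KO samples. Eno1 was higher in the add-back within both batches, with groups that overlapped.

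The promoters of these genes were searched for the core of the hypoxia response element, the letters to which HIF binds. The motifs were ACGTG and GCGTG on either strand, in RefSeq promoters of build GRCm38.p6 from 250 bases before to 50 bases after each transcript start. CACGTG holds ACGTG on both strands, and a promoter with any match was counted once. Among all 32851 promoters 43.8% held either motif and 19.6% held ACGTG. Of the 17 lower genes of both lists 15 matched the table, with 22 promoters, of which 19 (86.4%) held either motif and 12 (54.5%) held ACGTG. The whole lists held either motif about as often, in 82.8% of 29 hypoxia promoters and 76.7% of 30 glycolysis promoters. They held ACGTG in 55.2% and 50% of these promoters. Counted by gene, any promoter held either motif for 67.2% of the 10882 tested genes in the table and for 93.3% of the lower genes. For the whole lists this was 100% of 19 hypoxia genes and 84.2% of 19 glycolysis genes. The lists were chosen from pathways whose promoters HIF binds, so a share above all promoters follows from that choice. It carries no information on the difference between the lines. A match of this length is a description, and binding was not measured. Windows of 25 bases are shown for genes of different roles, 5′ to 3′ on the strand of the gene, with ACGTG in capitals.
Bnip3 (mitophagy), chr7:138909599-138909623, minus strand: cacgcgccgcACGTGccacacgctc
Slc16a3 (lactate export), chr11:120949030-120949054, plus strand: ggcagcggtgACGTGcgcgggggac
Slc2a1 (glucose uptake), chr4:119108699-119108723, plus strand: cccgccccggACGTGctccccaggc
Pgk1 (glycolysis), chrX:106186940-106186964, plus strand: gtcgtgcaggACGTGacaaatggaa
Ldha (lactate formation), chr7:46845650-46845674, plus strand: gtcgcagcacACGTGgagccactct
Egln1 (oxygen sensing), chr8:124949308-124949332, minus strand: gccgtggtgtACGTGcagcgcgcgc

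In Slc16a3, ACGTG began 27 bases before the start and again 14 bases before it, and in Bnip3 it began 107 bases before the start. Tpi1 held neither motif in the window, while 14 of the 15 matched lower genes held either motif in a promoter.

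Genes of the amino acid response, which supply serine, proline and transporters when amino acids are scarce, had mostly lower values, chiefly in batch a. All 21 listed genes were tested and 0 were called. At an unadjusted p under 0.05, against 1.54% of all genes lower and 1.27% higher, 4 were lower (Vldlr, Aldh18a1, Psat1 and Nupr1) and 0 higher. That count was 0 without KO a, 2 without add-back a and 1 without the batch term. In both batches 17 of 21 were lower (21.9% of all genes), and 9 had both add-back samples below both KO samples (6.84% of all genes). The median difference was -0.31, but it was -0.58 and -0.13 in batches a and b, and -0.12 without add-back a. The summed level was 2448 and 2655 CPM in KO, 1757 and 2472 in the add-back, and between 2200 and 2482 in WT. In the Hmga2 add-back it was nearly the same as in the Hmga1 add-back, at 1748 and 2396 CPM.

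Psat1, an enzyme of serine synthesis, had 473 and 461 CPM in KO and 303 and 394 in the add-back, a log2 difference of -0.43 (SE 0.14). Aldh18a1, an enzyme of proline synthesis, had 120 and 108 CPM in KO and 71.7 and 89.1 in the add-back, a difference of -0.51 (SE 0.15). Vldlr, a lipoprotein receptor, had 6.59 and 9.73 CPM in KO and 3.13 and 5.85 in the add-back, a difference of -0.91 (SE 0.26). For all 3 genes the groups did not overlap, and add-back a was the lowest of the 4 samples. The Hmga2 add-back, with its own samples of batches a and b, had 306 and 393 CPM of Psat1.

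Markers of primitive endoderm, the extraembryonic lineage that lays down basement membrane, had higher values in the add-back. Of 12 listed primitive endoderm and trophoblast genes 9 were tested, and 8 were higher in both batches (24.1% of all genes). None was called, and 0 had an unadjusted p under 0.05 in the fit of 9 samples. In edgeR's fit of the 4 samples alone 0 were called, and 7 were higher and 0 lower at that p. Over all genes of that fit, 336 of 13920 were higher at that p. The median difference was 0.85, with 0.56 in batch a and 0.80 in batch b. Of the 9 genes, 1 had both add-back samples above both KO samples (8.00% of all genes). Batch b exceeded batch a in both lines for all of them but Krt7. The 5 defining markers of primitive endoderm (Gata4, Gata6, Sox17, Sox7 and Pdgfra) summed to 6.93 and 19.5 CPM in KO and 13.8 and 39.5 in the add-back. In WT they summed to 65.3, 22.4 and 48.6. The 9 tested genes of the list summed to 28.4 and 56.0 CPM in KO and 49.3 and 106 in the Hmga1 add-back. In the Hmga2 add-back the 9 summed to 53.3 and 37.4 CPM, above KO in batch a and below it in batch b.

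Pdgfra, a receptor that marks primitive endoderm, had 1.57 and 6.23 CPM in KO, 4.77 and 17.5 in the add-back, and 24.5, 6.83 and 23.5 in WT. The add-back was at 303% and 280% of KO of batches a and b, but add-back a was below KO b. This is a log2 difference of 1.56 (SE 0.80). Dab2, an endocytic adaptor, had 3.42 and 12.4 CPM in KO, 11.2 and 27.5 in the add-back, and 50.6, 16.4 and 30.1 in WT. Its difference was 1.36 (SE 0.71). The transcription factors Sox17 and Gata6 had differences of 1.57 (SE 0.99) and 1.05 (SE 0.77), with 0.168 and 2.20 CPM of Sox17 in KO and 1.67 and 4.20 in the add-back. The keratins Krt8 and Krt18 had differences of 0.85 (SE 0.44) and 0.48 (SE 0.27).

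Genes of basement membrane and of endocytosis in that lineage were listed after their values were seen. Of the 13, 9 were higher and 0 lower in both batches, against 24.1% and 21.9% of all genes. The other 4 differed in direction between the batches. None of the 13 had both add-back samples above both KO samples (8.00% of all genes), and 0 were at an unadjusted p under 0.05 in the fit of 9 samples. In edgeR's fit of the 4 samples alone, 6 were higher and 0 lower at that p. The median difference was 0.41, and -0.04 without add-back b. Col4a1 and Col4a2, collagen IV chains that lie side by side on opposite strands of chromosome 8, were called by the fit of the 4 samples alone. Col4a1 had 14.9 and 88.7 CPM in KO, 45.0 and 193 in the add-back, and 122, 105 and 112 in WT. KO a was thus the lowest and add-back b the highest of the 7 samples. The log2 difference was 1.25 (SE 0.75) in the fit of 9 samples and 1.35 (SE 0.15) in that of 4, with adjusted p values of 0.9999 and 0.00125 in edgeR. Over all alternatives the adjusted p of Col4a1 ran from 0.00125 to 1.

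Cubn, an endocytic receptor of visceral endoderm, had 2.55 and 37.4 CPM in KO, 15.7 and 82.0 in the add-back, and 78.3, 51.9 and 48.9 in WT. It was at 614% and 219% of KO of its batch. Lamb1, a laminin chain, had 100.9 and 168 CPM in KO, 152 and 262 in the add-back, and between 186 and 200 in WT, a difference of 0.62 (SE 0.28). The spread behind these standard errors includes WT, where batch a was above batch b for Pdgfra, Dab2 and Cubn, opposite to KO and the add-back. Without KO a, the median difference of the primitive endoderm and trophoblast list was 0.27, and without add-back b it was 0.10. The part of cells of another type in this difference was not tested.

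**Figure D3:**
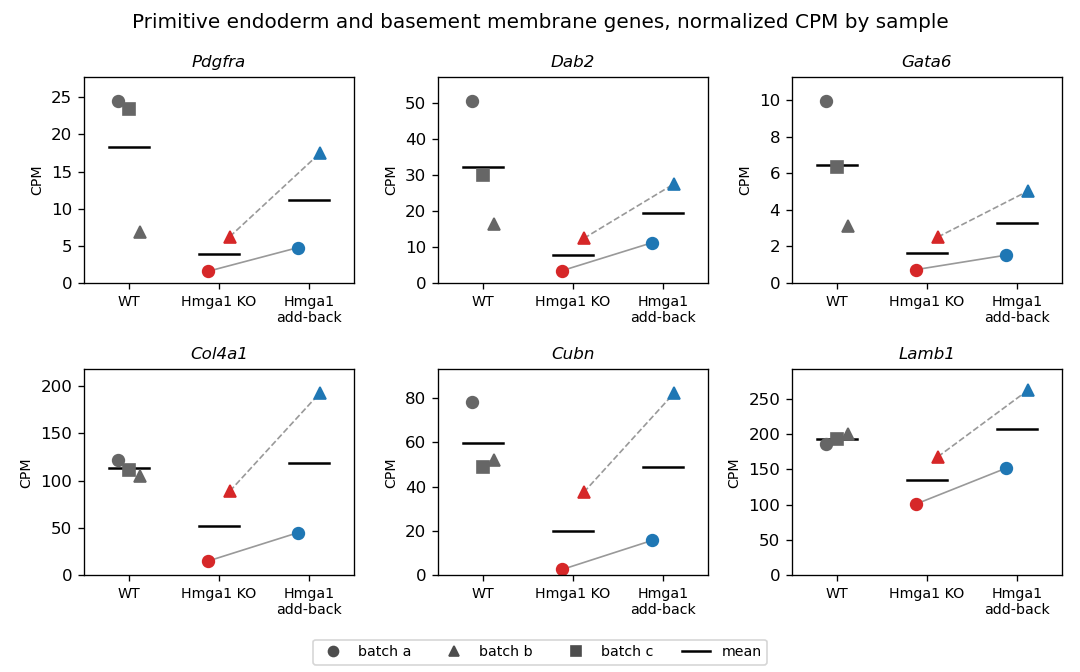
Normalized CPM (y axis, from 0) of 6 primitive endoderm and basement membrane genes in each sample of WT, Hmga1 KO and Hmga1 add-back, drawn as in the plot of hypoxia genes. Within each batch the add-back lies above KO for all 6 genes, while batch b lies above batch a in both lines, so that the groups overlap.

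Other genes among the 12 with the largest positive difference shared by both batches were Ctsh (a lysosomal protease), Srgn (a proteoglycan core protein), Flt1 (a VEGF receptor), Gata2 (a transcription factor), Ankrd33b, Clu (the chaperone clusterin) and Clic6. Of these Ctsh, Gata2, Clu and Clic6 had both add-back samples above both KO samples (8.00% of all genes). Gata2 had 2.02 and 1.37 CPM in KO and 5.26 and 2.77 in the add-back, a log2 difference of 1.24 (SE 0.35). Clu had 12.3 and 16.6 CPM in KO and 21.6 and 41.2 in the add-back, and WT had 9.21 to 18.2.

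Among the 12 with the largest shared negative difference, besides Bnip3, Stc2 and Slc16a3, was Tmem64, a membrane protein of the endoplasmic reticulum. It had 89.9 and 93.5 CPM in KO, 37.0 and 51.6 in the add-back, and 93.2, 88.0 and 58.2 in WT. The add-back samples were below both KO samples and all WT samples, at 41.2% and 55.2% of KO. The log2 difference was -1.07 (SE 0.17), with an adjusted p of 0.824 in edgeR, 0.000229 in DESeq2 and 0.00659 in the fit of the 4 samples, and it ran from 0.000229 to 1 over all alternatives. Nrp2, a semaphorin receptor, had 88.8 and 105 CPM in KO against 52.3 and 52.0 in the add-back. The protease inhibitor A2m had 7.94 and 18.9 CPM in KO and 3.36 and 8.10 in the add-back, where the groups overlapped by a narrow margin. Glod5, Serpinf1, Grin1, Myl9, Aire and 4933427D06Rik had log2 differences from -1.66 to -0.96 at under 7 CPM in each of the 4 samples.

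Sfmbt2, Tmem201 and Impact were chosen after their values were seen, for their low p. DESeq2 gave them adjusted p values under 0.01 at less than a 2-fold difference. Sfmbt2, an imprinted Polycomb group gene, had 107 and 102 CPM in KO, 44.6 and 63.4 in the add-back, and 94.4, 114 and 79.9 in WT, a log2 difference of -0.99 (SE 0.15). In the Hmga2 add-back it had 32.8 and 45.7 CPM, also below every KO and WT sample. Tmem201, a protein of the inner nuclear membrane, had 27.0 and 20.4 CPM in KO, 52.6 and 34.3 in the add-back, and 28.1, 21.6 and 15.3 in WT, a difference of 0.86 (SE 0.13). Impact, an imprinted regulator of translation, had 131 and 145 CPM in KO, 235 and 229 in the add-back, and between 161 and 177 in WT. Its difference was 0.75 (SE 0.13). For Sfmbt2, Tmem201 and Impact, both add-back samples lay outside the range of the KO and WT samples.

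**Figure D4:**
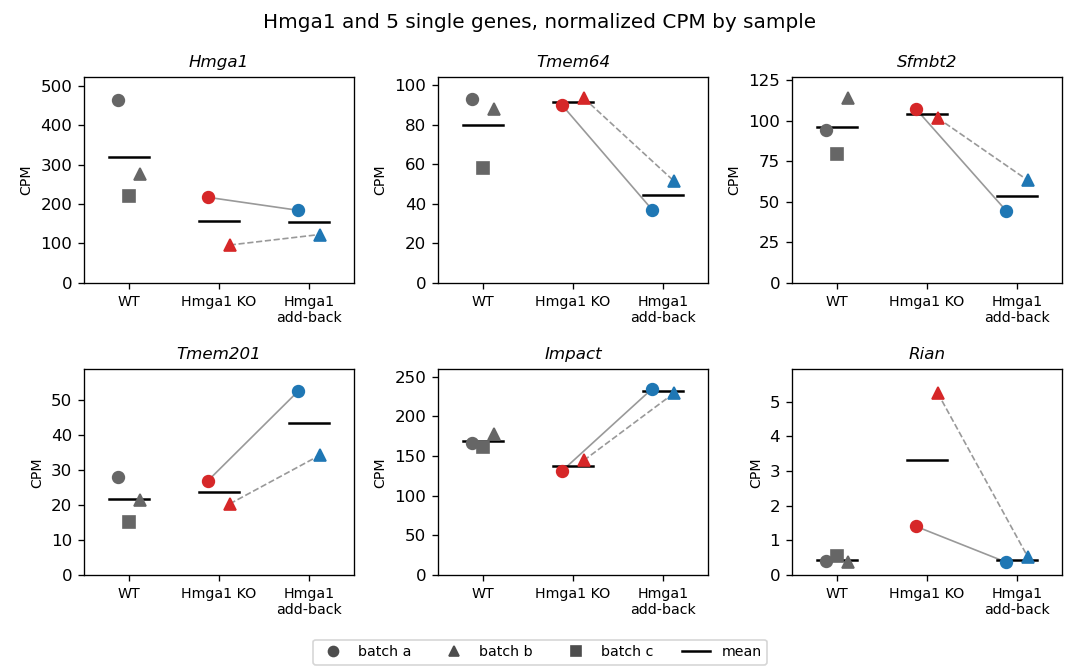
Normalized CPM (y axis, from 0) of Hmga1 and of 5 genes in each sample of WT, Hmga1 KO and Hmga1 add-back, drawn as in the plot of hypoxia genes. Hmga1 counts of add-back and KO overlap, Tmem64 and Sfmbt2 are lower and Tmem201 and Impact higher in both add-back samples than in every KO and WT sample, and Rian is highest in KO b.

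Imprinted genes had differences in both directions. Of 18 tested, 5 were higher and 5 lower in both batches, against 24.1% and 21.9% of all genes. The median difference was 0.03, but -0.38 without add-back b. At an unadjusted p under 0.05, 4 were lower (1.54% of all genes), Rian, Meg3, Igf2r and Plagl1. Plagl1 had only 14 and 6 counts in KO a and b and 2 and 3 in the add-back. Its mean over these 4 samples was 6.25 counts, and it reached the minimum through WT, with 95, 32 and 50 counts. Rian and Meg3 are noncoding RNAs of one imprinted cluster on chromosome 12. Rian had 1.40 and 5.24 CPM in KO, 0.373 and 0.525 in the add-back, and between 0.388 and 0.540 in WT, so that KO b stood above the other samples. Its log2 difference was -2.60 (SE 0.51). Meg3 had 0.449 and 2.89 CPM in KO and 0.230 and 0.225 in the add-back, from 16 and 38 counts in KO and 8 and 3 in the add-back. Igf2r, the receptor that clears Igf2, had 212 and 203 CPM in KO and 149 and 137 in the add-back, a difference of -0.54 (SE 0.16).

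The Y-linked genes tested, Uty, Ddx3y (an RNA helicase) and Eif2s3y (a translation initiation subunit), were at a trace level in both lines. Uty had 1.07 and 3.04 CPM in KO, 0.316 and 0.825 in the add-back, and 30.9, 41.4 and 37.0 in WT. Eif2s3y had 1.18 and 2.20 CPM in KO, 0.603 and 1.27 in the add-back, and between 47.6 and 73.9 in WT. All 3 were lower in both batches, with a median difference of -1.54 by edgeR and -0.94 and -0.997 in batches a and b with the added 0.5 CPM. In the Hmga2 add-back Uty had 0.0889 and 0.211 CPM. Both add-back samples were thus below every WT sample. Tuba3a, a testis alpha-tubulin that had between 3.10 and 4.36 CPM in WT, had 36.8 and 16.7 in KO and 25.5 and 11.5 in the add-back.

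Pluripotency genes had differences in both directions. Of 23 tested, 5 were higher and 9 lower in both batches (24.1% and 21.9% of all genes), with a median difference of -0.11. The 1 with an unadjusted p under 0.05 was Fbxo15, with 360 and 296 CPM in KO, 233 and 265 in the add-back and between 218 and 279 in WT. Tfcp2l1, a naive pluripotency factor, had 709 and 804 CPM in KO and 1100 and 804 in the add-back, a difference of 0.32 (SE 0.16). The lowest difference of the list was that of Dppa3, a germline and pluripotency gene, at -1.05 (SE 0.63), with 23.9 and 6.08 CPM in KO and 8.10 and 5.998 in the add-back, and a difference of 0.37 without KO a. Of 10 formative and neural genes 0 were higher and 5 lower in both batches (24.1% and 21.9% of all genes). The median was -0.41, but -0.58 in batch a and -0.11 in batch b, and -0.02 without KO a, where 0 genes were at an unadjusted p under 0.05, against 3 with all samples. Otx2, which marks exit from the naive state, had 37.4 and 27.9 CPM in KO, 17.5 and 22.04 in the add-back and between 12.5 and 27.0 in WT. Lef1 and Pax6 had log2 differences of -1.23 (SE 0.40) and -0.95 (SE 0.40), with groups that overlapped. Without KO a these were -0.54 and -0.0134.

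Genes of 2-cell-like cells, a rare state in ESC cultures, differed in direction between the batches. Their 6 markers summed to 72.4 and 27.5 CPM in KO, 38.7 and 32.8 in the add-back, and 1.95 to 5.51 in WT. Of 9 listed genes tested 2 were lower and 0 higher in both batches. The median difference was -0.55, and 0.60 without KO a.

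Among the remaining lists, the 76 ribosomal protein genes, 79 respiratory chain genes, 24 genes of replication and mitosis, 16 heat shock genes and 14 p53 targets had 0 members at an unadjusted p under 0.05. Their medians were -0.02, -0.06, -0.10, -0.01 and 0.17. The 9 Hmg genes (median -0.06), 9 LIF and Stat3 genes (0.06) and 3 mesendoderm genes (0.42) also had 0. The mesendoderm median was -0.30 without add-back b and 0.10 without KO a. Over all genes, 24.1% were higher and 21.9% lower in both batches. Of 23 genes of sterol synthesis 15 were higher and 1 lower in both batches, and their median was 0.12. Of these 23, 8 had both add-back samples above both KO samples (8.00% of all genes), and 0 were at an unadjusted p under 0.05. Of 63 replication-dependent histone genes 30 were higher and 3 lower in both batches, with medians of 0.22 in batch a and 0.01 in batch b. Of 19 ERK feedback and early genes 8 were higher and 3 lower in both batches, with a median of 0.15. At an unadjusted p under 0.05, the histone list and the ERK list each had 1 gene higher (1.27% of all genes) and 0 lower.

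**Figure D5:**
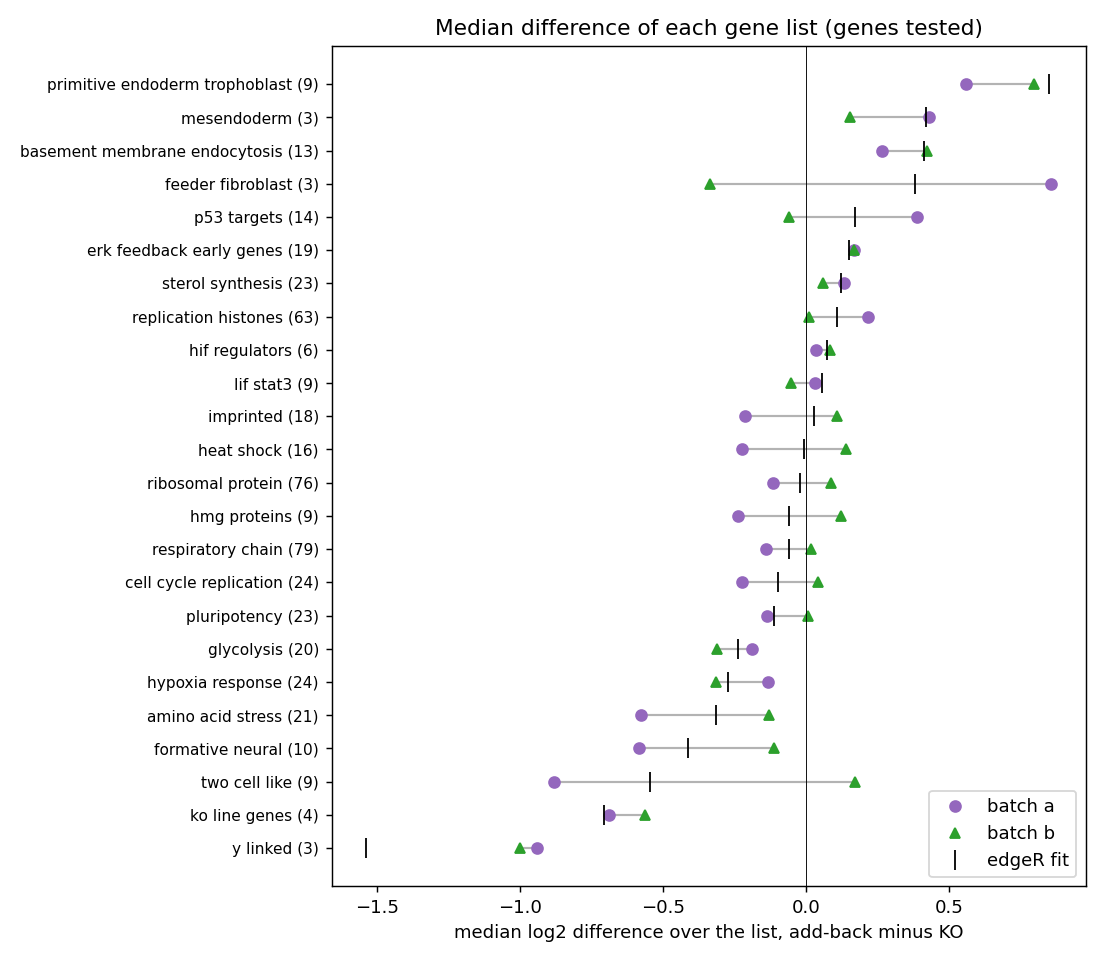
Median log2 difference between Hmga1 add-back and Hmga1 KO over the tested genes of each list (number in brackets), in batch a (circles), batch b (triangles) and by edgeR (bars). The medians of the hypoxia, glycolysis and amino acid lists lie below 0 and that of primitive endoderm and trophoblast above 0 in both batches, while heat shock, ribosomal protein and 2-cell-like genes change sign between batches.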

How the data were processed

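Total RNA of mouse ESC was depleted of ribosomal RNA, made into strand-specific libraries and sequenced as single 50-base reads. The authors trimmed 3 bases, aligned reads to mm9 with QuasR and Bowtie (bcl2fastq 2.17 in the processing notes), placed reads with several alignments at 1 of them at random and counted same-strand reads per UCSC known gene. The deposited values are raw counts of 21662 genes in 9 samples. The count table of the full-deletion experiment was not used. Near-identical genes therefore share reads, and the depth of 13465399 to 34952136 counts limits low genes most.

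Groups came from the labels. Genes averaging 10 or more counts entered edgeR 4.0.16 (quasi-likelihood test, R 4.3.3) after TMM scaling, with group and batch letter in the model, all 9 samples sharing 1 estimate of the spread and Benjamini-Hochberg adjustment over 13912 genes. WT c is alone in its batch. Differences within a batch used CPM plus 0.5. The threshold for a call was a log2 difference of 1 or more with an adjusted p under 0.01. With 2 cultures of 1 line per group, p values measure the spread between cultures. The letters are batches by the study's methods, and the difference between a and b had a correlation across genes of 0.702 between KO and add-back. Replicates differed beyond counting error (chi-square per degree of freedom of 56.6 in KO and 76.0 in the add-back).

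Alternatives were DESeq2 1.42.0 and limma-trend (limma 3.58.1, prior count 2), other scalings and filters, no batch term, the 4 samples alone, an adjusted p under 0.05, no minimum fold, and each sample left out. The scripts were tested on simulated data. Genes named are Hmga1, Hmga2, Bnip3 and Slc16a3, the 12 higher and 12 lower genes with the largest smaller difference of both batches (mean count of at least 50), genes called by any of the tools, and up to 4 genes per list by p or level. Not all list members of high level are described in the results. Among those left out, Kdm3a (hypoxia) had a log2 difference of -0.26 and Atf4 (amino acid) -0.07. Lamc1 and Sparc (basement membrane) had 0.14 and 0.16. All hypoxia and glycolysis genes at an unadjusted p under 0.05 were named too, and Sox17, Gata6, Eno1b, Sfmbt2, Tmem201, Impact, Ddx3y, Nupr1 and Dppa3 after their values were seen. The members and lists were chosen with earlier results of these data known. Positions of genes are from the NCBIM37 annotation and promoters from RefSeq (GRCm38.p6). Plots used matplotlib 3.10.9.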

Additional observations from a re-analysis of the deposited data

How the results depend on the processing

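The count of genes called was 0 with edgeR under DESeq2 size factors, summed counts, no filter, a mean count of at least 50, no batch block, an adjusted p under 0.05, no minimum fold and with any sample left out, and 0 with limma-trend. It was 2 with DESeq2 and 4 in the fit of the 4 samples. The count of genes at an unadjusted p under 0.05, 390 with the replicate block, was 98 with no replicate block, that is without pairing by batch letter, and 642 in the fit of the 4 samples. With a sample left out it ran from 76 to 679. It was 76 without KO a, 676 without KO b, 591 without add-back b, 671 without WT a and 679 without WT b. The cause was not tested. Directions were followed for 70 named genes, many of them chosen on these same values for a shared sign or a low p. The alternatives reuse the same samples, so that keeping a direction follows in part from that choice and does not measure stability. Of the 70 genes 66 kept their direction under all 17 alternatives. The exceptions were Hmga1 (-0.0303 with no replicate block and, with a sample left out, from -0.232 to 0.33, with -0.0625 without add-back b), Hmga2 (from -0.043 to 0.37 with a sample left out), Pou5f1 (from -0.30 to 0.0572) and Dppa3 (from -1.85 to 0.371). The median of the hypoxia list ran from -0.33 without KO a to -0.15 without KO b, and its 9 lower genes at an unadjusted p under 0.05 became 2 with no replicate block and 5 without either KO sample or without add-back b. The 8 lower glycolysis genes became 3 with no replicate block, 4 without KO a, 5 without KO b and 3 without add-back b. The primitive endoderm and trophoblast median ran from 0.10 without add-back b to 1.65 without KO b, and that of the basement membrane list, added after seeing the data, from -0.04 without add-back b to 0.94 without KO b. The amino acid list had a median of -0.12 without add-back a and -0.56 without add-back b. Of 360 medians under alternatives 317 moved by less than the standard deviation of the 2 batch medians of the same list. Lists whose batches differ most had the widest limit, so this count does not measure stability. Summed counts moved the median of all genes to 0.03. Counts of Meg3, Rian, Plagl1, Uty and Sox17 are low, and depth limits them.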
